A study of Mus musculus with 11 samples.

Results

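Evx1, Hottip and Hoxa13 stand at the posterior edge of the HoxA cluster on mouse chromosome 6, and Evx2 stands at that of the HoxD cluster on chromosome 2. These 4 genes were chosen by position, with the peak lists already in view, out of 49603 RefSeq gene records. Binding of Smchd1, a chromatin protein of the SMC family that helps to keep the inactive X chromosome and some autosomal gene clusters silent, had been mapped in neural stem cells by chromatin immunoprecipitation and sequencing with an antibody to GFP. The cells carried a Smchd1-GFP fusion on both alleles of the endogenous locus. Wild-type cells, which have no tag, went through the same pull-down as a control, and whole cell extract gave the input. All cells had been grown from C57BL/6 embryos of day 14.5 and passaged up to 20 times.

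Chromatin was cut with micrococcal nuclease (MNase), an enzyme that digests the DNA between nucleosomes, in 5 libraries: a male and a female knock-in line, a male and a female wild-type line, and extract from a female line (1 library each). It was sheared by 30 min of sonication in 6 libraries, all of them from female cells, as pairs of knock-in, untagged and extract libraries. The genotype behind the extracts is not stated in the labels. The deposited result of each experiment is 1 list of peak positions, with 2840 peaks in the MNase list and 2196 in the sonication list. No height or read count stands beside a peak, so depth and the spread between libraries are unknown, and no library or genotype was set against another. The labelled cell type was not tested, since positions of peaks carry no marker expression. Everything below is therefore a description of where peaks lie. Fragmentation and the sex of the cells differed together between the lists and cannot be told apart.

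Hox clusters hold homeobox genes in the order in which they are used along the body axis, with group 13, used last and most posteriorly, at one end. Hoxa13 is the last gene of HoxA and is needed for digits and for the end of the gut and the genital tract. Evx1 and Evx2 are homeobox genes related to even-skipped of Drosophila; they lie beyond group 13, and both mark a class of commissural interneurons in the spinal cord. Hottip is a long non-coding RNA transcribed away from Hoxa13. In human cells its RNA binds WDR5 and helps the MLL histone methyltransferases to keep posterior HOXA genes active.

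In mm10, Hoxa13 spans 52258853 to 52260880 on chromosome 6 and is read from the minus strand. Hottip follows from 52262775 to 52267603 on the plus strand, 1894 bp further out, and Evx1 from 52313498 to 52318389 on the plus strand, 52.6 kb beyond Hoxa13. On chromosome 2 the orientation is turned round: Hoxd13 ends the cluster at 74668225, and Evx2 spans 74652989 to 74661520 on the minus strand, 6.70 kb beyond it. The gene table gives spans and start sites but no exons, so peaks are placed against those.

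Whether peaks reached the start site divided the 4 genes into pairs. The starts of Hottip and Evx2 lay inside an MNase peak, and those of Hoxa13 and Evx1 lay in gaps between MNase peaks; in the table as a whole, 0.651% of 32851 RefSeq start sites were inside one. None of the 4 was inside a sonication peak, against 0.067% of all start sites. The 250 bases before each start site are shown because they hold this contrast. They are RefSeq sequences (GRCm38.p6), written 5′ to 3′ on the gene's strand, with every CG dinucleotide in capitals. They cover chr6:52262525-52262774 (plus strand) for Hottip, chr2:74659558-74659807 (minus) for Evx2, chr6:52260881-52261130 (minus) for Hoxa13 and chr6:52313248-52313497 (plus) for Evx1.
Hottip: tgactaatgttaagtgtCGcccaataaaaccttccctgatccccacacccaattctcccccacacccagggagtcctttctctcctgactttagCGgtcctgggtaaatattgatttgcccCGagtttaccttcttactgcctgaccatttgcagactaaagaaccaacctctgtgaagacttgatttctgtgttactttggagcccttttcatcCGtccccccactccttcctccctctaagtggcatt
Evx2: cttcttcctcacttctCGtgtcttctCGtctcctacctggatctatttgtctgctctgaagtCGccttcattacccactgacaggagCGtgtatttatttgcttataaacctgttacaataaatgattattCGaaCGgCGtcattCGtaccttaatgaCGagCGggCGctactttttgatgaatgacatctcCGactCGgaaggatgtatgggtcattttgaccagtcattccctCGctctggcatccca
Hoxa13: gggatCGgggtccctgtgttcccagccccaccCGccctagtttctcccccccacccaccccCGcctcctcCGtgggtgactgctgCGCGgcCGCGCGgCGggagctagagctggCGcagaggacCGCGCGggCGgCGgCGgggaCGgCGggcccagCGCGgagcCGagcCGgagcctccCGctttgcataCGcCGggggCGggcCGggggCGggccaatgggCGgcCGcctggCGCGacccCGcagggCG
Evx1: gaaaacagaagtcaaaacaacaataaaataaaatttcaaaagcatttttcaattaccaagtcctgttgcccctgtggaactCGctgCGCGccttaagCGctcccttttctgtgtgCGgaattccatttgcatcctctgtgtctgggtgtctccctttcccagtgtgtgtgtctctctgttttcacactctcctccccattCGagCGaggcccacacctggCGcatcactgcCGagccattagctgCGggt

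All 250 bases before the starts of Hottip and Evx2 were in MNase peaks, and 0 bases of the other pair were. The Hottip start lay in a peak of 2850 bp and the Evx2 start in one of 4800 bp. The Hoxa13 start was 430 bp from the nearest MNase peak, in a gap of 1350 bp, and the Evx1 start was 698 bp from the nearest one, in a gap of 2850 bp. Among these 4 windows, G+C content was higher in the uncovered pair than in the covered pair, while the number of CG dinucleotides did not follow the division. Upstream of Hoxa13, 80.0% of bases were G or C with 35 CG dinucleotides, a G+C content that 1.23% of all promoters of this length reached. Evx1 had 49.6% and 10 CG, Hottip 48.4% and 4 CG, and Evx2 45.6% and 14 CG, where the median promoter had 52.4% and 6 CG. Evx1 and Hottip differed by little in G+C, so the order among the 4 rests mainly on Hoxa13, and with 4 windows it is a description only.

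Short promoter motifs were looked for on both strands of these windows; the 3 motifs do not overlap one another. TATAAA, the TATA box, was found once, before Evx2, and 12.4% of all promoters hold it. CCAAT, the CCAAT box, was found 2 times before Hottip, once before Hoxa13 and not before the Evx genes, with 33.8% of all promoters holding it. TAATTA, a core bound by many homeodomain proteins, was in none of the 4 windows and in 4.84% of all promoters.

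Evx2 was the most fully covered of the 4 genes in the MNase list. Its 8.53 kb were 94.7% in MNase peaks, and 11 of 21779 coding genes (0.0505%) were covered to that extent or more. Here and for the other members, such a count includes the gene itself and takes no account of gene length. The 4 genes were picked with these peaks in view, so the ranks are descriptions only. Peaks of 3150, 4800 and 6450 bp overlapped it, and one of 1350 bp lay 988 bp beyond its far end. The neighbours were parted by 0 to 300 bp, so that they formed nearly one block. The 6450 bp peak, from 74660401 to 74666850, began in the Evx2 span and ran over the non-coding gene Gm31790 towards Hoxd13; 9 peaks of the MNase list (0.317%) were as wide or wider. The 6.70 kb between Evx2 and Hoxd13 were 97.8% in peaks.

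Hottip came next among the genes. Of its 4.83 kb, 87.6% was in MNase peaks, and 13 of 12639 long non-coding RNA genes (0.103%) were covered as fully or more. Peaks of 2850, 1500 and 2100 bp overlapped it, the last pair without a gap between them. A peak of 5850 bp, wider than Hottip itself, lay 1397 bp beyond its 3′ end, from 52269001 to 52274850. The covered ground thus went past the annotated transcript, in the direction away from the cluster.

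Hoxa13 was covered over 71.4% of its 2.03 kb, a share that 29 of 21779 coding genes (0.133%) reached. Its MNase peaks were one of 4200 bp, from 52255501 to 52259700, which reached into the gene from its 3′ side, and one of 600 bp inside the gene, from 52259851 to 52260450. The next peak outward was the 2850 bp one at Hottip, 920 bp beyond the gene. Hoxa13 and Hottip are so close that 4 MNase peaks lay within 5 kb of both and are counted for both. Between the 2 genes, 51.4% of bases were in peaks.

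Evx1 was covered least. A single MNase peak of 750 bp, from 52315651 to 52316400, lay in the gene and took up 15.3% of its 4.89 kb, a share reached by 96 of 21779 coding genes (0.441%). Within 5 kb there were 4 more, of 750, 900, 600 and 750 bp, of which 3 lay upstream, in the antisense transcript Evx1os, and 1 lay 2661 bp beyond the 3′ end. The widest, 900 bp, was matched or passed by 420 peaks (14.8%) of the MNase list, whose median width was 450 bp. The paralogues therefore had nearly the same number of peaks within 5 kb, 5 at Evx1 and 4 at Evx2, while the covered share of the gene was 15.3% at Evx1 and 94.7% at Evx2.

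**Figure D1:**
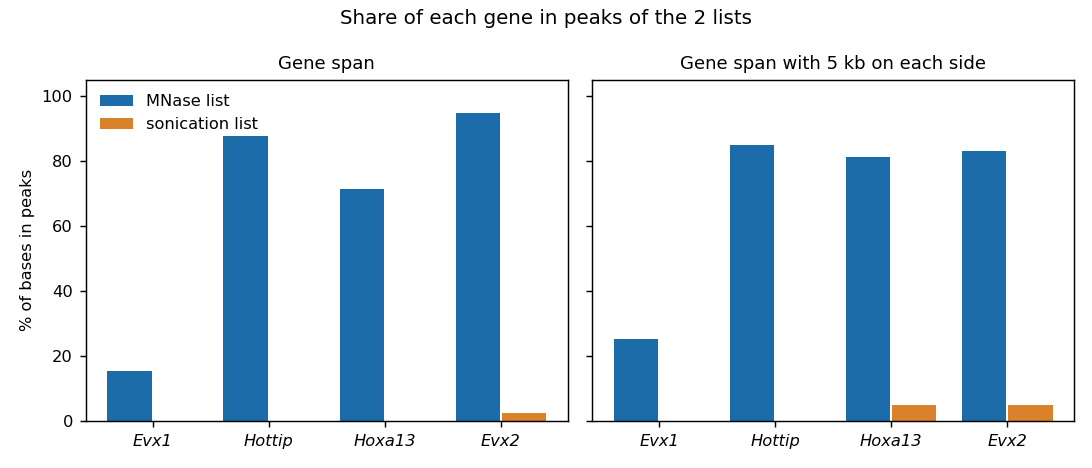
Percent of bases in MNase peaks (blue) and sonication peaks (orange) for Evx1, Hottip, Hoxa13 and Evx2, over the gene span (left) and with 5 kb on each side (right). In the MNase list, Hottip, Hoxa13 and Evx2 stand at 84.8%, 81.3% and 83.2% with flanks and Evx1 at 25.2%; sonication bars reach 4.99% at Hoxa13 and 4.86% at Evx2.

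Counted as genes with a peak within 5 kb, 4 of 4 members had one in the MNase list and 2 of 4, Hoxa13 and Evx2, in the sonication list. Among all genes, 3.72% had an MNase peak and 2.25% a sonication peak within that distance. Since the members were picked with these lists in view, nothing is read from their count. In all, 16 MNase peaks and 2 sonication peaks lay within 5 kb of a member. The distance of 5 kb bore on the sonication count alone: the peak nearest Hottip was 5.32 kb away and so just outside, and the one at Hoxa13 was 1402 bp away. In the MNase list, the first peaks outside 5 kb were at 6.40 kb for Evx1, 7.40 kb for Hottip, 5.45 kb for Hoxa13 and 5.48 kb for Evx2, and the last inside were at 2947, 3074, 4370 and 988 bp, in the same order.

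Sonication peaks marked the edges more sparsely than MNase peaks. At HoxD, a peak of 900 bp from 74661301 to 74662200 lay mostly, with 650 bp, in the non-coding gene Gm31790. The peak overlapped the outermost 220 bp at the 5′ end of the Evx2 span and lay 1744 bp upstream of the start site given for Evx2. The span runs 1963 bp beyond that start site on the 5′ side, and the peak touched Evx2 in this outer part alone. It was among the wider ones of its list, with 55 of 2196 (2.50%) as wide or wider. Hoxd13, which is nearer to the cluster, had 0 sonication peaks within 5 kb, and the peak at Gm31790 and Evx2 stood apart from the next one inward by 24.0 kb. At HoxA, the outermost sonication peak was 600 bp wide, from 52256851 to 52257450, on the 3′ side of Hoxa13. It ended 3.43 kb short of the outer boundary of Hoxa13, and no sonication peak lay at Hottip or Evx1. Both sonication peaks lay wholly (100%) inside an MNase peak, of 6450 bp at Evx2 and 4200 bp at Hoxa13. MNase peaks held 97.0% of the first 10 kb beyond Hoxd13 and 81.0% of the last 10 kb of HoxA, so little can be read from this overlap.

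**Figure D2:**
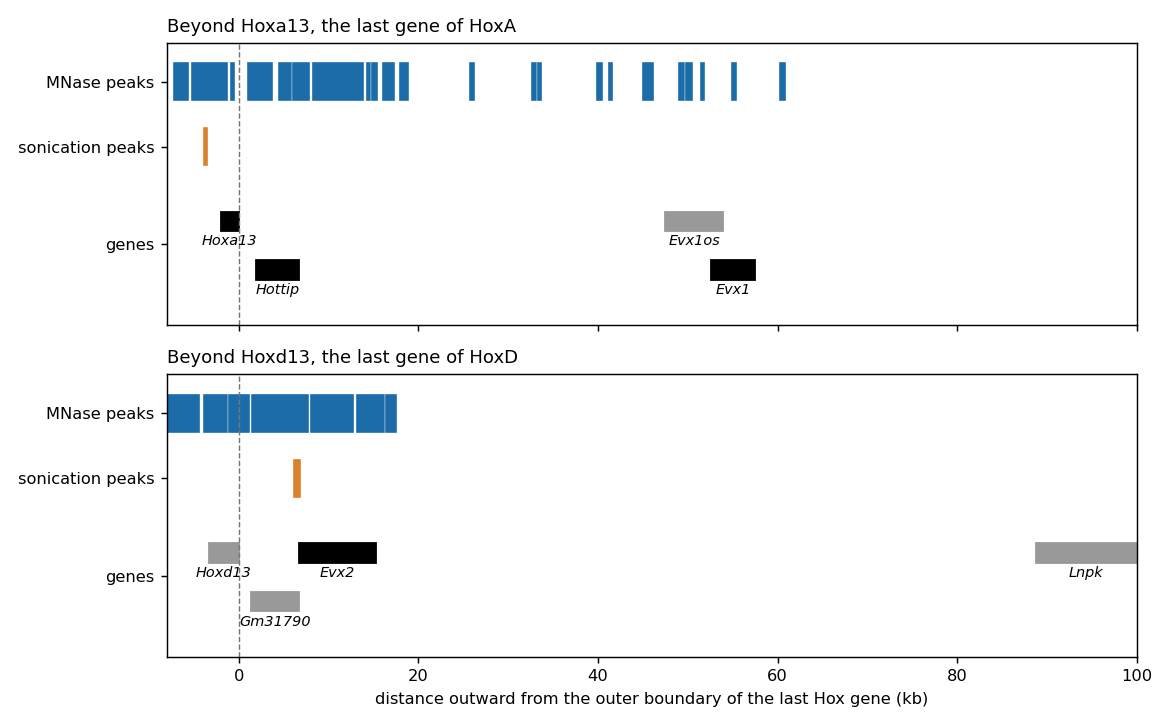
Map of peaks and of the genes named here from 8 kb inside to 100 kb beyond the outer boundary (dashed line) of Hoxa13 (top) and Hoxd13 (bottom), in kb outward; MNase peaks are blue, sonication peaks orange, the 4 genes black and other genes grey. The dense MNase stretch ends at 18.9 kb at HoxA, followed by scattered peaks up to 60.9 kb, and at 17.6 kb at HoxD, with none after it.

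Where the covered ground ended was close in distance at both clusters when gaps of 1 or 5 kb were bridged, and not otherwise. The first gap was measured from the gene boundary. At Hoxa13 it was 920 bp, part of a gap of 1350 bp between peaks that joining over 1 kb would not bridge. With MNase peaks joined over gaps of up to 5 kb, the stretch reached 18.9 kb beyond Hoxa13, to 52279800, and 17.6 kb beyond Hoxd13, to 74650651. With gaps of up to 150 bp the ends were at 0 kb and 12.8 kb, and with gaps of up to 10 kb at 60.9 kb, which takes in Evx1, and 17.6 kb. Of the bases in these stretches, 85.6% beyond Hoxa13 and 96.6% beyond Hoxd13 were in peaks. At HoxD the stretch took in the whole of Evx2 and stopped 2.34 kb past it. At HoxA it took in Hottip and stopped 33.7 kb before Evx1.

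Past these points the HoxD side was empty and the HoxA side was not. Beyond Evx2, 82.4 kb of the 100 kb window held 0 peaks of either list, up to and into Lnpk, a gene for a protein of endoplasmic reticulum junctions, and the next MNase peak was 774.8 kb from Hoxd13. Beyond the HoxA stretch, 11 MNase peaks of 600 to 1350 bp followed over 42.0 kb, 19.6% of which was in peaks. Their median width was 750 bp, against 1500 bp for the 8 peaks of the stretch itself. The gaps before them ran up to 6750 bp, with a median of 2850 bp. The 5 peaks within 5 kb of Evx1 are the outer part of this series, and the last of them, from 52321051 to 52321800, ended 60.9 kb from Hoxa13. After it, 39.1 kb of the window were empty, and the next MNase peak came at 260.3 kb.

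In steps of 10 kb outward from Hoxa13, 83.3% and 78.7% of bases were in MNase peaks, then 6.00%, 14.3%, 35.5%, 19.2% and 7.50%, and 0% in the 3 outermost steps. The share therefore had a second, lower maximum from 40 to 50 kb, on the cluster side of Evx1. Outward from Hoxd13 the steps held 97.0% and 72.7%, and 0% in all the rest. Inside the clusters, the last 10 kb held 81.0% at HoxA and 95.5% at HoxD, so the MNase share was much the same on either side of the last Hox gene. In the sonication list the share over the last 50 kb of HoxA was 31.5% in the innermost step and 6.00% in the one that ends at Hoxa13, and it was 0% in each step beyond. At HoxD the last 10 kb held 0% and the first 10 kb beyond Hoxd13 held 9.0%, all of it the peak at Gm31790 and Evx2.

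**Figure D3:**
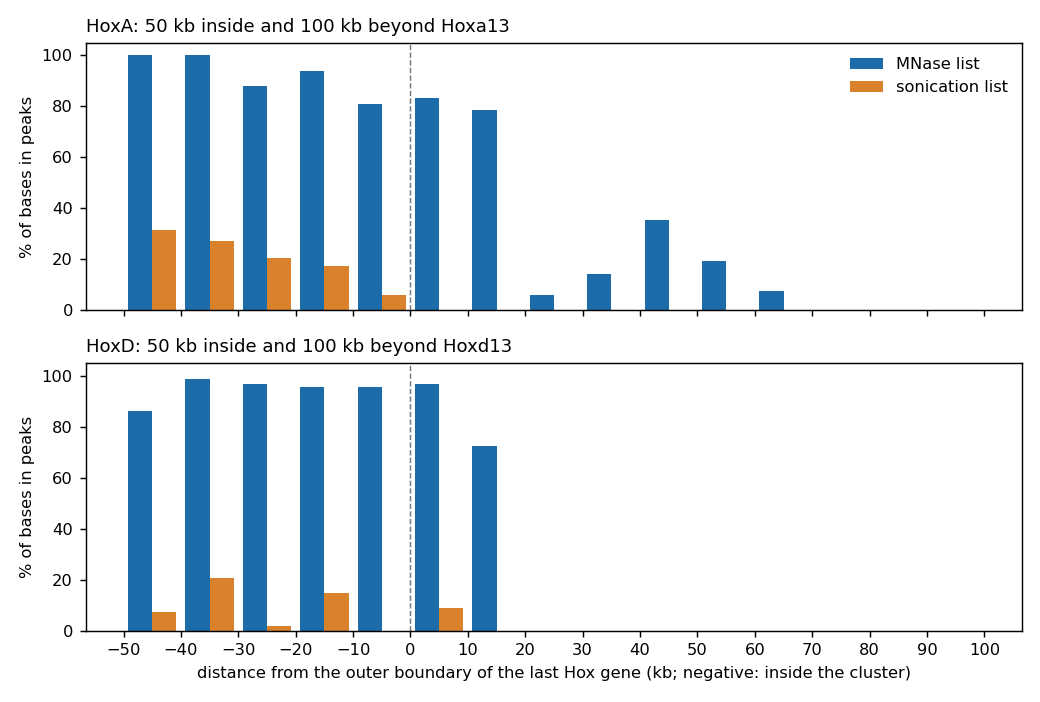
Percent of bases in MNase (blue) and sonication (orange) peaks in steps of 10 kb, from 50 kb inside to 100 kb beyond the outer boundary of Hoxa13 (top) and Hoxd13 (bottom). MNase bars stay at 78.7% or above up to 20 kb beyond Hoxa13 and return to 35.5% between 40 and 50 kb; beyond Hoxd13 they are 97.0% and 72.7% and then 0%.

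Set beside 5 other ends of the Hox clusters, the posterior ends of HoxA and HoxD held the most peak length in the adjoining 100 kb. MNase peaks covered 24.4% beyond Hoxa13 and 17.0% beyond Hoxd13. They covered 5.70% beyond Hoxc13 and 2.55% beyond Hoxb13, the posterior ends that have no Evx gene. At the anterior ends they covered 7.20% beyond Hoxc4 and 0% beyond Hoxb1 and Hoxd1. Beyond Hoxb13 lie Ttll6, a tubulin-modifying enzyme gene, and Calcoco2, an autophagy receptor gene, and beyond Hoxd1 and Hoxb1 come Mtx2 and Skap1. Joined over gaps of up to 5 kb, the stretch was 12.7 kb long beyond Hoxc13, with 5 peaks, 8.49 kb beyond Hoxc4 and 2.31 kb beyond Hoxb13. That beyond Hoxc13 was thin. Within the first 13 kb, 5.1 kb were in peaks there, against 12.5 kb beyond Hoxd13. The number of ends is 7 and each was measured once, so no test was made. The only one of the 7 windows with a sonication peak was that beyond Hoxd13, with the 900 bp peak that lay mostly in Gm31790 and touched Evx2.

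**Figure D4:**
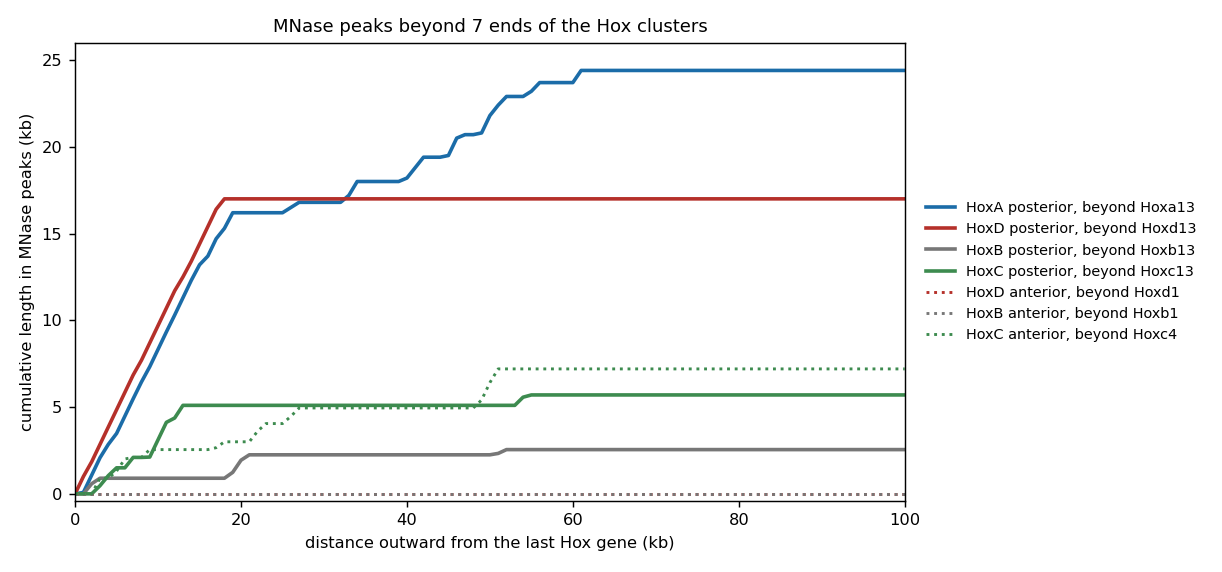
Cumulative length in MNase peaks (kb) with distance (kb) outward from the last Hox gene at 7 ends of the clusters; solid lines are posterior ends, dotted lines anterior ends, and HoxD and HoxB anterior lie together on 0. The curves beyond Hoxa13 and Hoxd13 climb together to 16.2 kb and 17.0 kb within the first 19 kb, after which only the HoxA curve goes on, to 24.4 kb.

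The posterior Hox genes inside the clusters give the frame for Hoxa13. All 16 genes of groups 9 to 13 had an MNase peak within 5 kb, and 10 had a sonication peak, beside 3.72% and 2.25% of all genes. Without Hoxa13 itself the counts were 15 of 15 and 9 of 15. Neighbours in a cluster can lie within 5 kb of the same peak, so the genes do not count independently. Hoxd13 and Hoxa9 were 100% covered by MNase peaks and Hoxd12 94.4%, while the group 13 genes of the other clusters had 26.1% (Hoxb13) and 11.7% (Hoxc13). Hoxa13, at 71.4%, was the least covered of these genes in HoxA and HoxD, where the others ran from 87.6% to 100%. For 9 of the 16 genes, all in HoxA and HoxD, the promoter table gave 11 start sites, and 10 of these were inside an MNase peak; that of Hoxa13 was the exception. Upstream of Hoxd13, whose start was inside a peak, 74.4% of bases were G or C, with 31 CG.

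Hottip was compared with other non-coding transcripts of the Hox clusters. Of 8 others that the gene table holds, 7 had an MNase peak within 5 kb and 3 a sonication peak, beside 3.72% and 2.25% of all genes. Some of these transcripts overlap Hox genes, so the same peaks can enter this count and that of the Hox genes. The covered shares of the 8 in the MNase list ran from 0% at Halr1 to 96.7% at Hoxa11os, which is antisense to Hoxa11, with Hottip at 87.6%. Hotair, a non-coding RNA of HoxC that can act on HoxD in human cells, was at 82.1%, and Hotairm1 at 36.5%. Of the 7 genes for WDR5 and the MLL complexes with which Hottip RNA works in human cells, Wdr5, Kmt2a, Kmt2b, Ash2l, Rbbp5, Dpy30 and Men1, 0 had a peak of either list within 5 kb; with 3.72% and 2.25% of all genes having one, a count of 0 among 7 genes is no result about them.

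Homeobox genes related to Evx that lie outside the Hox clusters had at most 1 peak each within 5 kb. Of 13 such genes, 3 had an MNase peak within 5 kb and 0 a sonication peak, beside 3.72% and 2.25% of all genes. The 3 were En1 and En2, the engrailed genes of midbrain and hindbrain patterning, and Cdx2, a regulator of posterior identity and gut, each with 1 peak of 600 bp, which covered 10.9% of En1 and 9.45% of Cdx2. Gbx1, Gbx2, Mnx1, Meox1, Meox2, Gsx1, Gsx2, Pdx1, Cdx1 and Cdx4 had none. None of them carried a peak wider than 600 bp, where the widest within 5 kb was 900 bp at Evx1 and 6450 bp at Evx2. The authors' 11 broad domains of enrichment included 0 on chromosomes 2 and 6, so none touched these edges.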

How the data were processed

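Peak positions in base pairs were used as the authors deposited them; the value column is empty in both lists. Per the file headers, the lists have the layout of SeqMonk probe reports. The submitters' processing notes name mm10, bcl2fastq, MACS2 and Bowtie 0.12.9, with no role or order. Each list stands for all libraries of its experiment, 5 for MNase and 6 for sonication; the sources used here do not say how each library entered it. Every peak begins on a 150 bp grid and none is narrower than 300 bp, so widths and gaps move in such steps, and counts of peaks depend on where a stretch was split.

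Genes and start sites came from RefSeq tables of GRCm38.p6, the assembly of mm10. Records in the first 3 Mb of a chromosome (340) or off the chromosomes used (54) were left out. Overlap was counted from 1 bp with Python 3.11.15, numpy 2.4.6 and pandas 2.3.3, tested on simulated data. Distances outward start at the outer boundary of the last Hox gene. The members and gene lists were chosen with earlier results of these data known. The text names the members, the last Hox gene of 7 cluster ends (1 other is not reported here), the first coding gene and named non-coding genes within 100 kb beyond it, and genes with a peak within 5 kb from 5 lists: posterior Hox genes, Evx-related homeobox genes, non-coding Hox transcripts, Hottip partners and genes beyond the clusters. Genes without a peak, Gm31790, and the covered shares given as examples were named after their values were seen. Haglros and Hoxc13os were not found in the gene table. No test was made, since pooled positions hold no replicates.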

Additional observations from a re-analysis of the deposited data

How the results depend on the processing

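Of 24 alternative settings over 6 results, 15 were scored as leaving the value as it was or within a margin and 9 as moving it. The scoring was uneven, since a sonication count of 3 in place of 2 was scored as unmoved and a count of 1 as moved. The 4 members with an MNase peak were 4 under every alternative distance, overlap and width. The sonication count of 2 was 1 with the gene body alone, through the outer 5′ part of the Evx2 span, and 1 within 1 kb, and 3 within 10 kb. The end of the MNase stretch beyond Hoxa13 was 0 kb with gaps of at most 150 bp, since the first gap is longer, 18.9 kb with 1 kb and 60.9 kb with 10 kb, which takes in Evx1. Beyond Hoxd13 it was 12.8 kb with 150 bp and 17.6 kb with 1 and 10 kb. The share of bases in MNase peaks was 43.6% in the first 50 kb and 81.0% in the first 20 kb beyond Hoxa13, and 33.9% and 84.9% beyond Hoxd13, since the covered part lies near the clusters. Leaving out peaks of 300 bp changed none of the 6 values and could not, since no peak at these edges was narrower than 600 bp. That setting, used for each of the 6 results, is among the 15 and is no check of them. No paired analysis was possible because the lists hold no values per library; for the same reason no replicate could be left out. Depth is unknown, so a missing peak at Evx1 or Hottip in the sonication list does not show that no protein was bound there.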

Other observations

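Of 12 coding genes around the clusters, 3 had an MNase peak within 5 kb and 2 a sonication peak, beside 3.72% and 2.25% of all genes. Skap1, an adaptor gene of T cells beyond the anterior end of HoxB, had 10 MNase peaks of up to 1050 bp and 1 sonication peak of 300 bp. Its relative Skap2 had 4 MNase peaks of up to 1650 bp and no sonication peak. Both are long genes, and MNase peaks covered 2.08% of Skap1 and 2.64% of Skap2. Ttll6 had 1 MNase peak of 300 bp. On the Evx1 side, Hibadh and Tax1bp1 had none, and Jazf1, a zinc finger gene further out, had 1 sonication peak of 600 bp. On the Evx2 side, Lnpk and Atp5g3 had none. The first coding genes beyond Evx1 and beyond Evx2, Hibadh and Lnpk, were therefore without a peak in both lists. With 3.72% and 2.25% of all genes having one, this is no result about them.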
